A study of Zea mays with 4 samples.

Results

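CPP2 (Zm00001d031008) is a maize transcription factor whose binding sites in purified genomic DNA were mapped with DAP-seq (DNA affinity purification sequencing). All peaks that the authors listed for the CPP2 library were taken, 165420 of the 398506 peaks in the lists of 4 factors, or 41.5%. The other lists were those of C3H23 (Zm00001d008323, 76032 peaks), OBF4 (Zm00001d012553, 51187 peaks) and THX20 (Zm00001d017420, 105867 peaks). In all 4 experiments the factor's coding sequence, cloned from leaf cDNA, was made as a Halo-tagged protein in wheat germ extract and held on beads, and a library of B73 leaf DNA (14 DAG), B73 being an inbred line, was passed over it. The DNA that stayed bound was sequenced. The study's design presents the 4 proteins as factors that act downstream of ZmNAC128 and ZmNAC130, NAC regulators of endosperm filling. The DNA was purified from leaf, so a peak shows where the protein can bind bare DNA and not where it sits in an endosperm nucleus. Each factor had 1 library, so nothing below has a replicate check and no p-value across samples is given.

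CPP proteins are a small family of cysteine-rich factors found in plants and animals, also named after tesmin and TSO1. They bind DNA through a pair of cysteine-rich CXC domains joined by a short conserved stretch. In Arabidopsis, TSO1 is needed for ordered cell division in floral tissue, and in soybean a CPP protein binds the promoter of a leghemoglobin gene. The animal relative LIN54 is the DNA-binding subunit of a complex that controls genes of the cell cycle. The other factors carry the names of a CCCH zinc finger protein (C3H23), an ocs-element binding factor of the bZIP class (OBF4) and a trihelix protein (THX20). No genome of the build behind the lists was used here, so no sequence under a peak is shown and no gene is named beside one.

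The strength of the CPP2 sites was described first, with the signal that the authors gave each peak. Most CPP2 peaks were weak and a few were very strong. The lowest signal was 13.0, the median 41.0 and the highest 764.1, which was 18.6 times the median. The 75th percentile of the signal was 71.0, the 90th 109 and the 99th 195.9. There were 20686 peaks above a signal of 100, 1479 above 200, 210 above 300 and 17 above 500. The scale of the signal is not stated. Its ranks, sums and ratios therefore describe this list alone and are not amounts of binding. When peaks were ranked by it and cut into 10 classes of 16542, the strongest class held 27.1% of the summed signal and the weakest 3.17%. The median signal was 135.5 in class 1, 71.0 in class 3, 45.2 in class 5, 30.7 in class 7 and 17.6 in class 10. The strongest 24.2% of the peaks held 50% of the summed signal. The authors' −log10 p placed peaks in nearly the same order (Spearman correlation 0.980 over peaks of this 1 library), and 63.1% of peaks stayed in the same class when ranked by it.

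The 10 strongest CPP2 peaks lay on 7 of the 10 chromosomes. Positions are those of the deposited list, counted from 1, on a genome build not given in the sources used here. The strongest peak, at chr1:285338079-285338279, had a signal of 764.1. It had a second CPP2 summit 146 bp away and overlapped a C3H23 peak. The next, at chr9:106166858-106167058, had a signal of 759.0 and stood alone, with its nearest CPP2 summit 1598 bp away. The third, at chr4:44115355-44115555 (638.7), was 1 of 4 summits of a group and also overlapped C3H23. The next 5 were weaker than these and close to each other, with signals between 590.2 and 582.2. They were at chr1:239274811-239275011, chr7:8461644-8461844, chr5:185059080-185059280, chr2:28177199-28177399 and chr4:3537658-3537858. The last of the 10 were at chr10:25099853-25100053 (538.7) and chr4:120719603-120719803 (537.8). Of the 10 strongest peaks, 9 had another CPP2 summit within 1 kb, at 43 to 247 bp, and none overlapped an OBF4 or THX20 peak. Over all CPP2 peaks, 41.9% had such a neighbour, and 5.33% overlapped C3H23, 2.66% THX20 and 0.519% OBF4. With shares this low, 10 peaks cannot show a lack of OBF4 or THX20.

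**Figure D1:**
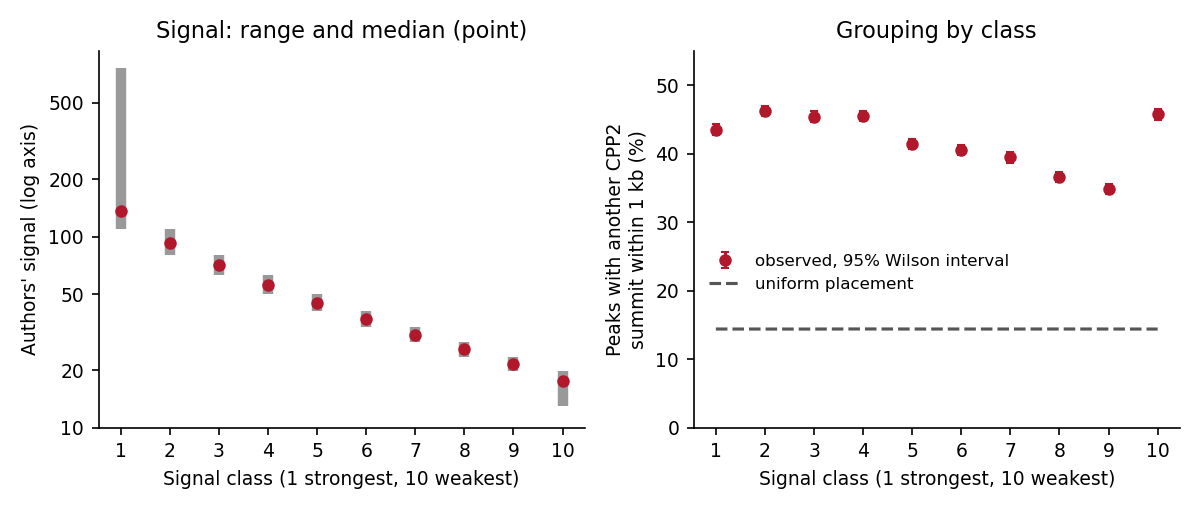
Left, the range (grey bar) and median (point) of the authors' signal in each of the 10 CPP2 signal classes, on a log axis. Right, the percent of peaks in each class with another CPP2 summit within 1 kb, with 95% Wilson intervals, and the percent under uniform placement (dashed); the share ran from 43.5 to 46.2% in classes 1 to 4, was 34.8% in class 9 and 45.7% in class 10.

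The spacing of CPP2 summits was then set against uniform placement of the same number of peaks on each chromosome and contig. CPP2 peaks stood in groups. Another CPP2 summit lay within 1 kb of 69320 peaks, or 41.9% (95% Wilson interval 41.7 to 42.1%), against 14.4% under uniform placement, a 2.91-fold excess. The excess was steepest at the shortest range: 27.3% of peaks had a neighbour within 200 bp, against 3.07% expected (8.89-fold), and 37.9% within 500 bp, against 7.49% (5.06-fold). It was 1.97-fold within 2000 bp, 1.27-fold within 5000 bp and 1.06-fold within 10000 bp. At 20000 bp nearly all peaks have a neighbour by uniform placement (95.3% observed, 95.5% expected), and the share can no longer show an excess. The nearest other summit was at a median of 1604 bp, against 4457 bp under uniform placement, and for 25% of the peaks it was within 181 bp. With neighbours under 200 bp left out, whose 201 bp peaks overlap, the excess within 1 kb was 1.54-fold. Peaks were counted as the authors' caller listed them, and whether 2 summits under 200 bp apart are separate binding events was not tested.

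Set against their own uniform expectations, the other lists were grouped as well. The excess within 1 kb was 2.91-fold for CPP2, against 4.13-fold for C3H23, 2.68-fold for OBF4 and 4.38-fold for THX20. CPP2 and THX20 had nearly the same grouped share, 41.9% and 41.6%, but the longer CPP2 list reaches a higher share by uniform placement alone. At 200 bp the excess was 8.89-fold for CPP2, against 5.08-fold for C3H23, 5.34-fold for OBF4 and 13.5-fold for THX20. The intervals here and below cover counting error alone, and peaks close to each other share their surroundings.

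All pairs of CPP2 summits, not only nearest neighbours, were then counted by distance. Below 5000 bp, pairs were concentrated in 3 bands separated by stretches near or below uniform placement. The first band peaked at 101 to 200 bp, with 16541 pairs (12.8-fold). It was 5.44-fold at 201 to 300 bp and 2.43-fold at 301 to 400 bp. Summits at most 30 bp apart were rare (220 pairs, 0.570-fold). The shortest distances, 1 to 10 bp, were rare in all 4 lists, at 0.350-fold for CPP2, 0.293-fold for C3H23, 0.0810-fold for OBF4 and 0.322-fold for THX20. From 701 to 800 bp only 794 CPP2 pairs were found, 0.617 times the expectation. The second band, from 1251 to 1750 bp, held 11686 pairs (1.82-fold), with its highest count at 1401 to 1500 bp (2919 pairs, 2.27-fold). Between the second band and the third, from 2001 to 4000 bp, pairs were again just under uniform placement (24024 pairs, 0.933-fold, interval 0.921 to 0.945). The third band, from 4401 to 4900 bp, held 10197 pairs (1.58-fold), with its highest count at 4501 to 4600 bp (2684 pairs, 2.08-fold). A lower crest stood at 8301 to 8400 bp (1.39-fold), and pairs 10001 to 20000 bp apart were still at 1.07-fold.

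The limits of the bands were set after the distances had been seen. The excess of the second band and of the third was not higher among strong peaks: pairs of 2 peaks from the stronger 50% of the list stood at 1.70-fold in the second band and pairs from the weaker 50% at 1.91-fold, and in the third band at 1.52-fold and 1.72-fold. In the range from 1 to 500 bp the order was the other way round, with 6.49-fold for 2 stronger and 4.70-fold for 2 weaker peaks. The same 2 distance ranges were also above uniform placement in the other lists, at 1.82-fold for CPP2 against 1.31-fold to 1.97-fold in the second band, and at 1.58-fold against 1.37-fold to 1.55-fold in the third. The stretch from 2001 to 4000 bp was below uniform placement only in CPP2 among the 4 lists, at 0.933-fold against 1.52-fold for C3H23 and 1.24-fold for both OBF4 and THX20. Beside that stretch, C3H23 was not higher in the third band (1.43-fold) and little higher in the second (1.63-fold). THX20 was little higher in the second band (1.31-fold) and higher in the third (1.55-fold). OBF4 was higher in both (1.97-fold and 1.37-fold). What the sequence at these distances has in common, such as a repeated element, was not tested.

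**Figure D2:**
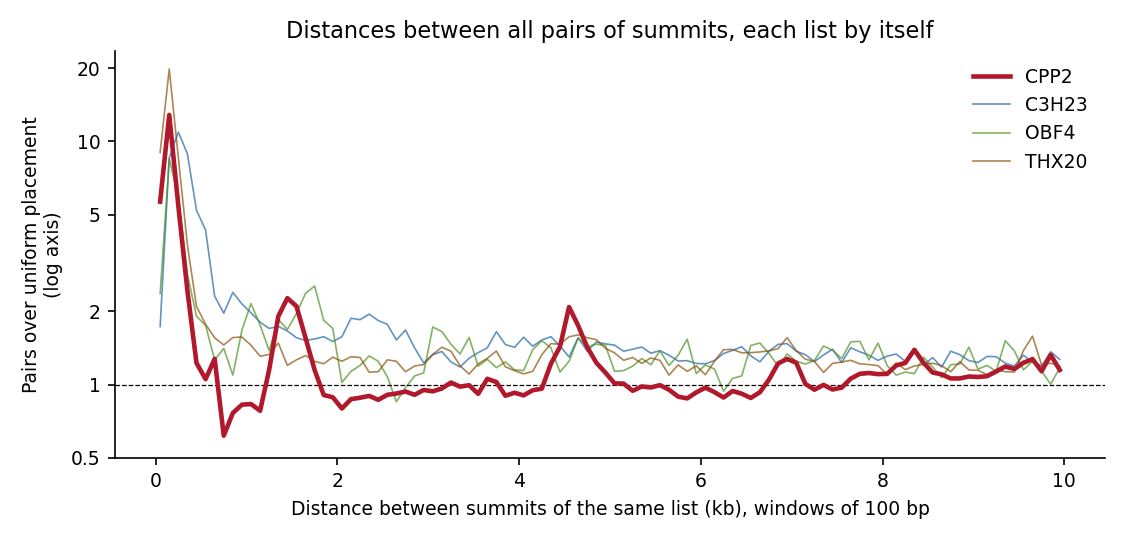
Pairs of summits of the same list by distance in kb (windows of 100 bp) over the number under uniform placement, on a log axis, for CPP2 (thick line) and the 3 other lists. CPP2 shows crests at 101 to 200, 1401 to 1500 and 4501 to 4600 bp (12.8-fold, 2.27-fold and 2.08-fold) and a trough at 701 to 800 bp (0.617-fold).

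Joining summits at most 1 kb apart gave 128396 CPP2 groups, most of them with 1 peak. Single peaks numbered 96100, 0.679 times the 141554 under uniform placement. There were 28144 groups of 2 (2.65-fold), 3674 of 3 (4.61-fold) and 401 of 4, against 60.0 expected (6.69-fold). Larger groups were rare, with 59 of 5 peaks, 16 of 6, 1 of 7 and 1 of 8. The excess over uniform placement was thus higher for each further peak up to groups of 6, with 12.9-fold for groups of 5 and 44.9-fold for groups of 6. The expected numbers were small there, at 4.56 and 0.357 groups. A typical pair was short, with a median span of 156 bp between its summits, against 389 bp in groups of 3 and 1060 bp in groups of 4 or more.

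The peaks of a group were of unequal strength, as were neighbours farther apart. In pairs, the stronger peak had a median signal of 66.5 and the weaker one 29.0, and a single peak had 39.0. In groups of 3 the strongest had 87.4 and the weakest 24.0, and in the 478 groups of 4 or more 101.65 and 22.75. A maximum over more peaks is higher by construction, so these medians describe the groups and do not show that grouping goes with strength. The median over all peaks, which has no such bias, was 46.25 in groups of 4 or more, 42.0 in groups of 3 and 43.7 in pairs, against 39.0 for single peaks. The weakest signal class was also more frequent in groups, at 10.8% of peaks in pairs, 11.3% in groups of 3 and 10.4% in groups of 4 or more, against 9.35% of single peaks. Among neighbours 101 to 200 bp apart the stronger signal was a median of 2.05 times the weaker, against 1.70 times at 501 to 1000 bp, 1.89 times at 1001 to 2000 bp and 1.79 times at 5001 to 20000 bp. At 101 to 200 bp the signals of both showed no common trend (Spearman correlation −0.05 over 16129 neighbouring pairs). The correlation was −0.19 at 51 to 100 bp and 0.17 at 201 to 300 bp. These correlations are weak and are given as descriptions of pairs that share 1 library.

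The 5 fullest groups were described one by one, with ties among the 16 groups of 6 peaks broken by summed signal. The fullest, at chr2:141326550-141329425, held 8 CPP2 peaks with signals from 31.2 to 88.9. Its summits were 284, 264, 309, 911, 301, 490 and 116 bp apart, so that 4 peaks at about equal steps were followed by a wide step and a further 4. A group of 7 at chr1:216298622-216301040 had signals from 25.9 to 183.4 and a wide step of 924 bp. Groups of 6 lay at chr2:238016111-238018202 (19 to 322.0) and at chr5:28719189-28721370 (18.1 to 188.9), with wide steps of 935 and 795 bp. The first 4 of these chosen groups had short steps and 1 wide one, and the other groups of 6 were not examined for it. The fifth group, at chr5:132164398-132167369 with 6 peaks of 41.0 to 160.0, had steps of 963 and 957 bp at either end instead. C3H23 peaks overlapped the first 4 groups (2, 1, 2 and 1 peaks) and not the fifth, and no OBF4 or THX20 peak overlapped any of the 5. Over all CPP2 peaks, 5.33% overlapped C3H23, 2.66% THX20 and 0.519% OBF4, so 5 groups are too few to show a lack of the last 2.

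Grouping was seen in every signal class. Beside the 41.9% of all peaks, 43.5% of the strongest class had a CPP2 neighbour within 1 kb, 46.2% of class 2, 45.5% of class 4 and 40.5% of class 6. The share was lowest in class 9, at 34.8% (34.1 to 35.5%), and was 45.7% (44.9 to 46.5%) in class 10. All 10 classes were above the 14.4% of uniform placement, by 2.42-fold to 3.21-fold. The high share of the weakest class depended on how peaks were ranked. With classes by the authors' −log10 p, a ranking chosen here after seeing the data, the weakest class had the lowest share of all, 30.4% (29.7 to 31.1%), against 46.1% in the strongest. By signal, 16.1% of class 10 had the nearest summit at 201 to 500 bp, against 9.23% of class 1.

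The density of CPP2 peaks along the 10 chromosomes was compared next. Whole chromosomes differed little, from 75.5 peaks per Mb on chromosome 2 to 80.2 on chromosome 7, with 77.8 over all. Within chromosomes, the central 20% of the length was denser than the outermost 10% at either end, at 82.9 and 70.5 peaks per Mb, 1.18-fold (95% counting interval 1.16 to 1.19). The difference ran this way on 10 of 10 chromosomes and the interval excluded 1 on each. It was smallest on chromosome 4 (1.09-fold) and greatest on chromosome 6 (1.30-fold). On chromosome 6 the outer part was sparse, at 59.9 peaks per Mb. Its central part, at 77.8 per Mb, was the least dense of the 10 and near the mean of that chromosome, 77.2. Centromere positions were not used. The median signal, from 40 to 41.7, and the grouped share, from 41.2 to 42.5%, hardly differed between chromosomes.

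Windows of 5% of the length gave each chromosome its own profile. Chromosome 1, with 23678 peaks, had its highest density of 91.5 peaks per Mb at 40 to 45% of its length and its lowest density of 65.0 at the far end. Chromosome 2, with 18465 peaks, was densest at 50 to 55% (89.8 per Mb) and had a sharp trough of 52.5 at 90 to 95%. Chromosome 3, with 18173 peaks, was densest earlier, at 30 to 35% (91.6 per Mb), and sparsest at 80 to 85% (67.5). The crests of these 3 chromosomes were of nearly the same height, while their troughs differed more.

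Chromosome 4, with 19366 peaks, reached 89.8 per Mb at 35 to 40% and dropped to 56.0 at 70 to 75%, an inner trough with denser windows on both sides. Chromosome 5, with 17367 peaks, had 89.9 per Mb at 40 to 45% and 63.0 at its far end. Chromosome 6, with 13436 peaks, was the most uneven: its 50.5 per Mb at 5 to 10% and its 103 per Mb at 25 to 30% differed by 2.05 times. It also had the highest variance over mean among its windows, 19.2 on chromosome 6 against 4.35 on chromosome 9, the most even by that measure. Both of its extreme windows lay in the first 30% of the length.

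Chromosome 7, with 14618 peaks, had 93.9 per Mb at 30 to 35% and 68.0 at the far end. Chromosome 8, with 14219 peaks, was densest near its start (90.6 per Mb at 15 to 20%) and sparsest at 85 to 90% (69.6), a ratio of 1.30 and the smallest of the 10. Chromosome 9, with 12357 peaks, had 87.6 per Mb at 50 to 55% and 63.5 at 90 to 95%. Chromosome 10, with 12083 peaks, had 90.2 per Mb at 25 to 30% and 63.9 at its far end. The sparsest window began at 80% of the length or later on 8 chromosomes, chromosomes 4 and 6 being the exceptions.

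The other factors were also sparse in these CPP2 troughs. In the window at 70 to 75% of chromosome 4, CPP2 was at 0.714 times its chromosome mean, against 0.574 for C3H23, 0.644 for OBF4 and 0.636 for THX20. In that at 90 to 95% of chromosome 2, CPP2 was at 0.695 times its mean and the others at 0.545 to 0.661. In that at 5 to 10% of chromosome 6, CPP2 was lowest, at 0.653 against 0.715 to 0.783. All 3 other lists were below their mean in the sparsest CPP2 window of every chromosome. Mappability and blacklisted regions, which the lists share, cannot be told apart from binding here.

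**Figure D3:**
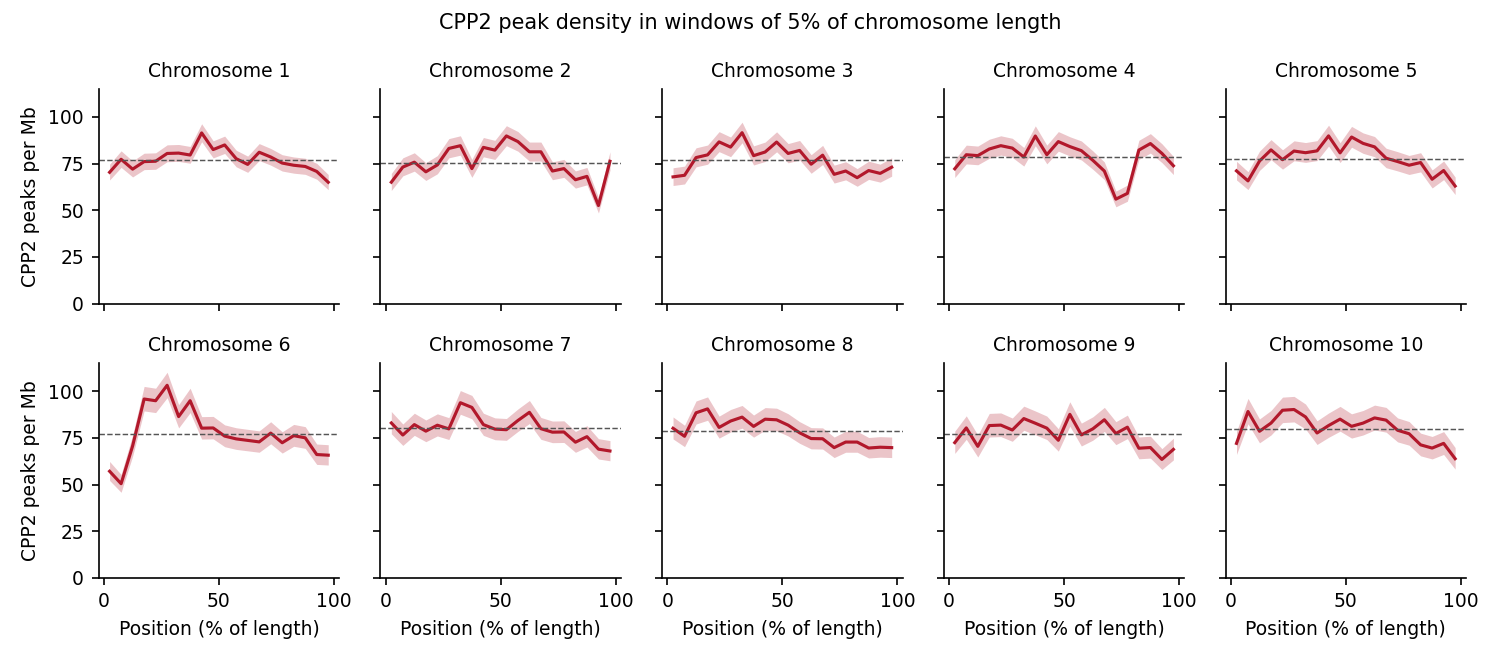
CPP2 peaks per Mb along each of the 10 chromosomes in windows of 5% of the length (line), with 95% Poisson intervals (shaded) and the chromosome mean (dashed). The profiles crest inside the chromosomes, at 87.6 to 103 peaks per Mb, with troughs of 56.0 on chromosome 4 and 50.5 on chromosome 6.

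The central excess was seen more in weak than in strong CPP2 peaks. The ratio of central to outer density was 1.06 (1.01 to 1.12) in the strongest class and 1.2 (1.15 to 1.26) in the weakest, with 1.13 in class 3 and 1.24 in class 9. It was above 1 on 6 of 10 chromosomes for the strongest class and on 10 of 10 for the weakest. Grouped peaks had a ratio of 1.16 and single peaks one of 1.18, within each other's intervals (1.14 to 1.19 and 1.16 to 1.21).

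In full bins of 1 Mb, CPP2 counts ran from 6 to 135 with a median of 78 over 2101 bins. Their variance was 2.59 times their mean, and 1.90 times when each group was counted once, where uniform placement gives 1. Relative to the mean, CPP2 had the lowest coefficient of variation of the 4 lists, 0.183 against 0.283 to 0.319, which a longer list also lowers through its smaller counting error. By variance over mean OBF4 was lower, at 2.59 for CPP2 against 2.26 for OBF4. The fullest bins were at chr10:46000001-47000000 (135 peaks), chr4:95000001-96000000 (129) and chr6:49000001-50000000 (126). The last of these also held 88 C3H23 peaks, the most of any bin for that factor. The emptiest bins were at chr6:12000001-13000000 (6 peaks), chr9:75000001-76000000 (8) and chr6:13000001-14000000 (9). Fuller bins did not hold stronger peaks (Spearman correlation of count with median signal −0.02 over bins, which share 1 library).

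The longest interval without a CPP2 summit ran at chr6:11535259-12730917, 1196 kb, and held no peak of any of the 4 factors. The next was at chr9:74986558-75924641 (938 kb), with 5 peaks of the other factors. The third, at chr4:229343134-230128815 (786 kb), held 16 THX20, 2 C3H23 and 1 OBF4 peaks, so other libraries had peaks there. On chromosome 10 the longest interval was only 213 kb. Contigs not placed on a chromosome held 1658 CPP2 peaks (1%), with a median signal of 42.0 against 41.0 on the chromosomes and a grouped share of 41.6% against 41.9%.

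The share of CPP2 peaks that overlapped each other list was set against the share of sequence within reach of that list's summits. Of the CPP2 peaks, 151993 overlapped no other list, 12781 overlapped 1, 632 overlapped 2 and 14 overlapped all 3. In all, 8.12% overlapped any other list. Uniform placement gave 1.37% for C3H23, 1.77% for THX20 and 0.942% for OBF4, so most peaks would overlap none by placement alone. The share by any list was 6.59% in the strongest class, 5.10% in class 2 and 11% in the weakest class. The median signal of the shared peaks was 33.1, against 41.7 for the peaks found in CPP2 alone.

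With C3H23, 8821 CPP2 peaks overlapped, 5.33% of the list, and from the other side 8249 C3H23 peaks, 10.8% of theirs. For CPP2 this was a 3.88-fold excess over uniform placement. The excess was found in every signal class and was lowest in class 2. It was 4-fold (3.75 to 4.26) in class 1, 2.75-fold (2.55 to 2.97) in class 2, 3.56-fold in class 5 and 5-fold (4.73 to 5.29) in class 10. From class 2 to class 10 the overlap excess was higher in each weaker class. C3H23 summits 501 to 1000 bp away were also more frequent around weak peaks, at 1.41-fold around class 2 and 2.11-fold around class 10. The higher overlap of the weak classes thus came with a higher C3H23 density around them. The strongest class stood out of the order of overlap, with only 1.12-fold at 501 to 1000 bp. Within it the excess was greatest at the very top: 23 of the 165 strongest peaks overlapped C3H23 (13.9%, interval 9.47 to 20%, 10.1-fold), as did 162 of the 1654 strongest (9.79%, 7.10-fold), against 3.65-fold in the rest of class 1. Within class 1, grouped peaks overlapped C3H23 4.79-fold and single peaks 3.38-fold. In class 10 the 2 values were 4.92-fold and 5.06-fold, with intervals that covered each other. The dip at class 2 was present with classes by −log10 p (4.16-fold in class 1, 2.74-fold in class 2), but the weakest class was then at 4.37-fold, and the shares of the strongest and weakest class differed by less than the counting error (ratio 0.951, interval 0.872 to 1.04, against 0.799 by signal).

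With THX20, 4408 CPP2 peaks overlapped, 2.66% of the list, and from the other side 4775 THX20 peaks, 4.51% of theirs. For CPP2 this was 1.50-fold over uniform placement. That was less than in the surroundings, where THX20 summits 501 to 1000 bp from CPP2 summits stood at 2.10-fold (17313 pairs). The overlap turned direction with CPP2 signal. The strongest class shared 150 peaks, or 0.907%, against 1.77% expected (0.512-fold, interval 0.436 to 0.6), and class 2 shared 191 (0.652-fold). Class 3 was near uniform placement at 0.912-fold (0.810 to 1.03). The 7 weaker classes were above it, at 1.19-fold in class 4, 1.54-fold in class 6, 2.50-fold in class 9 and 2.32-fold (2.16 to 2.50) in class 10. The share of the strongest class was 0.221 times that of the weakest, and stayed between 0.196 and 0.228 times it under all 5 alternatives run. None of the 165 strongest peaks overlapped THX20, which allows a share of up to 1.82% by the limit of 3 counts and up to 2.28% by the Wilson bound, above the 1.77% expected. When both lists were reduced to their stronger 50%, the overlap was below uniform placement (0.852-fold, interval 0.789 to 0.920). CPP2 peaks with a CPP2 neighbour within 200 bp were also below it (0.705-fold). Shared peaks had a median signal of 29.7, against 41.1 for those without THX20.

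With OBF4, 858 CPP2 peaks overlapped, 0.519% of the list, and from the other side 829 OBF4 peaks, 1.62% of theirs. For CPP2 this was 0.550 times uniform placement. The overlap was below uniform placement in all 10 CPP2 classes, with every interval below 1. It was 0.404-fold (63 peaks) in class 1, 0.302-fold (47 peaks) in class 2, 0.711-fold (111 peaks) in class 7 and 0.610-fold (95 peaks) in class 10. Grouped CPP2 peaks were at 0.433-fold (0.386 to 0.487) and single ones at 0.635-fold (0.585 to 0.688). The few overlaps of strong CPP2 peaks were with strong OBF4 peaks more often than those of weak ones. Of the shared peaks in the strongest CPP2 class, 34.9% met a peak of the strongest OBF4 class, against 8.42% in the weakest CPP2 class. When only the stronger 50% of OBF4 peaks was kept, the strongest CPP2 class accordingly had the higher share, 1.74 times that of the weakest (interval 1.04 to 2.90), against 0.663 times with the whole list.

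**Figure D4:**
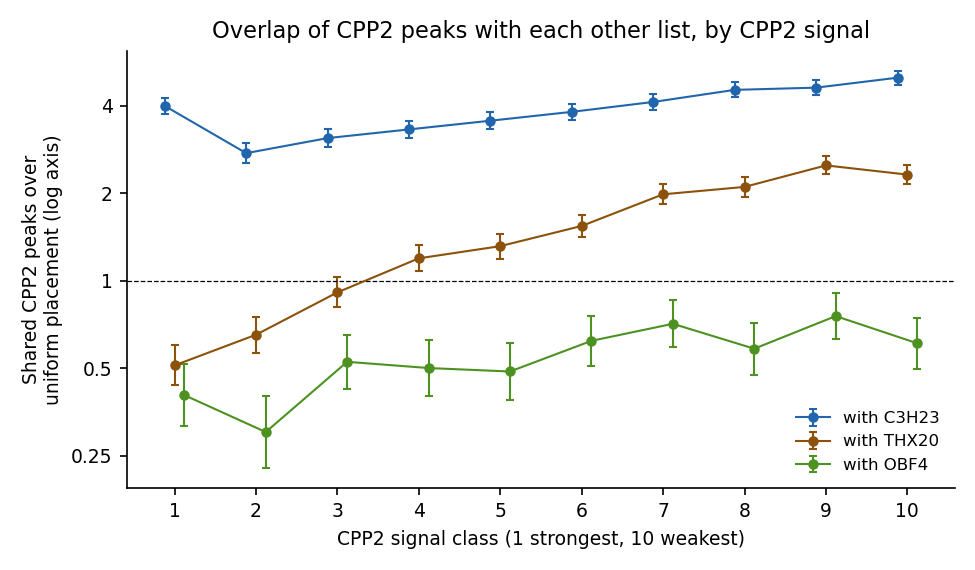
Share of CPP2 peaks that overlap a C3H23, THX20 or OBF4 peak over the share under uniform placement (log axis), by CPP2 signal class from 1 (strongest) to 10 (weakest), with bars for 95% Wilson intervals. C3H23 lies above 1 in all classes (2.75-fold to 5-fold), OBF4 below 1 in all (0.302-fold to 0.756-fold), and THX20 lies between 0.512-fold in class 1 and 2.50-fold in class 9.

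Distances between CPP2 summits and those of the other factors were then compared by class. C3H23 summits tended to lie closer to weak than to strong CPP2 summits, at a median of 82 bp in the shared peaks of class 10 and 123 bp in those of class 1. In the strongest CPP2 class the C3H23 excess was 2.73-fold at 0 to 50 bp, 5.09-fold at 101 to 200 bp and 4.11-fold at 201 to 300 bp. In the weakest class it was 6.11-fold at 0 to 50 bp, 4.37-fold at 101 to 200 bp and 3.22-fold at 201 to 300 bp. Of the shared peaks, 18.0% in the strongest class and 32.1% in the weakest had the C3H23 summit within 50 bp.

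THX20 summits were scarce up to 300 bp from strong CPP2 summits (0.601-fold at 0 to 50 bp, 0.485-fold at 101 to 200 bp, 0.607-fold at 201 to 300 bp) and frequent just beyond (584 pairs at 301 to 500 bp, 1.77-fold). Around the weakest class they were in excess throughout, from 2.60-fold at 0 to 50 bp to 2.41-fold at 301 to 500 bp. At 501 to 1000 bp THX20 was still at 2.24-fold around the weakest class, near its 2.32-fold overlap, and at 1.17-fold around the strongest. OBF4 summits were rarest right on strong CPP2 summits, with 6 pairs at 0 to 50 bp (0.149-fold, interval 0.0548 to 0.325). At 601 to 650 bp from them there were 94 pairs (2.36-fold). Over wider ranges OBF4 was below uniform placement around strong CPP2 summits, at 0.465-fold from 301 to 500 bp and 0.726-fold from 1001 to 2000 bp, though single windows of 50 bp reached 1.36-fold at 651 to 700 bp and 1.56-fold at 1701 to 1750 bp. THX20 was at 1.14-fold from 1001 to 2000 bp around the same class.

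Some single distances recurred far more often than those around them. A distance up to 3000 bp was noted when at least 20 pairs had it, over 2 times and over 4 Poisson standard deviations above the mean of the 20 distances around it, a criterion set after seeing the data. There were 34 such distances to THX20, 12 to OBF4 and 10 to C3H23, and nearly all were longer than an overlap allows (1, 0 and 2 were within 200 bp). These counts do not rank the factors, because the criterion depends on the number of pairs. Uniform placement gave 824 pairs per 50 bp with THX20, 398 with OBF4 and 592 with C3H23. A distance of 620 bp between CPP2 and OBF4 summits was found 84 times, against 10.2 around it. In 84.5% of these pairs the CPP2 peak was in the stronger 50% of its list, with 31 pairs in the strongest class, and they lay on all 10 chromosomes. The distance of 667 bp was found 50 times against 7.95, and 1667 bp 63 times against 10.2. The longer of these was not a feature of strong CPP2 peaks, with 1 of its 63 pairs in the strongest class.

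A distance of 1051 bp between CPP2 and THX20 summits was found 268 times, against 52.2 around it, with 7 pairs in the strongest CPP2 class. The distance of 968 bp was found 159 times against 36.7, and that of 482 bp 103 times against 32.7, 35 of them from the weakest CPP2 class. The distance to C3H23 that most exceeded its surroundings was 1179 bp (71 times against 23.2), and a much shorter one was 9 bp (101 times against 41.4). Whether the places that share a distance also share a repeated sequence was not tested.

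**Figure D5:**
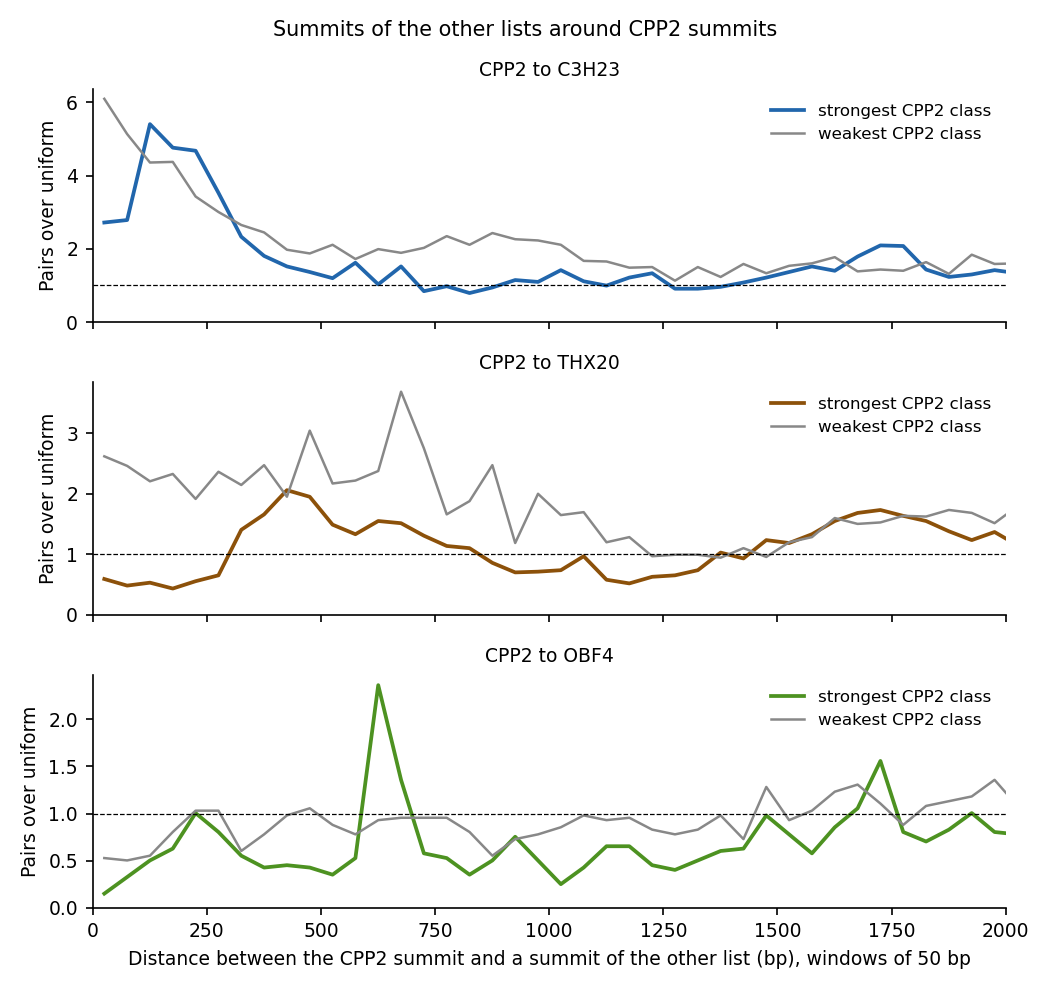
Pairs of a CPP2 summit and a summit of C3H23, THX20 or OBF4 over uniform placement, by distance in bp (windows of 50 bp), for the strongest (thick, coloured) and the weakest (thin, grey) CPP2 class. Around strong CPP2 summits C3H23 crests at 101 to 200 bp, THX20 is low up to 300 bp and 1.77-fold at 301 to 500 bp, and OBF4 is 2.36-fold at 601 to 650 bp.

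For each other factor the shared sites that ranked best in both lists were also listed. The best site with C3H23 was at chr2:238521176-238521376, with a CPP2 signal of 216.5. It stood within the strongest 0.607% of CPP2 and 2.50% of C3H23 peaks, with summits 98 bp apart. The next 2 were at chr1:254650469-254650669 (386.5) and chr9:18516032-18516232 (343.3). The best site with THX20 was at chr9:139822189-139822389 (244.0, strongest 0.346% of CPP2 and 1.99% of THX20, summits 27 bp apart), followed by chr1:84275044-84275244 (208.0) and chr6:158886057-158886257 (174.0). The best site with OBF4 was at chr8:48145898-48146098 (191.0, strongest 1.14% of CPP2 and 1.45% of OBF4, summits 82 bp apart). It was followed by chr1:106605563-106605763 (182.7) and chr7:116281790-116281990 (197.1). None of these 9 sites was among the 10 strongest CPP2 peaks.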

How the data were processed

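Each factor had 1 DAP-seq library. The submitters' processing notes name Trimmomatic 0.39 and Bowtie2 2.4.1; for the genome build, the peak caller and its control nothing is given in the sources used here. There was 1 list per library, and the deposited file names point to removal of blacklisted regions. The deposited lists give a score, a signal of unstated scale and a −log10 p-value and −log10 q-value per peak, all the authors' own. The signal and −log10 p ranked peaks within a list. The CPP2 signal was also summed and compared as medians and ratios within its list. Each peak is 201 bp wide. Read depth is unknown.

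An overlap of 1 bp or more, which means summits no more than 200 bp apart, counted as shared. Expectations for uniform placement were calculated per chromosome or contig, whose length was taken as the highest peak end in the 4 lists, including sequence that reads cannot reach. Shares have 95% Wilson intervals, pair counts and densities 95% Poisson intervals and ratios 95% log-normal intervals, all of counting error only. Calculations used Python 3.11.15, numpy 2.4.6, pandas 2.3.3 and scipy 1.17.1, with matplotlib 3.10.9 for figures; the counting of pairs and overlaps was tested on simulated data.

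The members and lists were chosen with earlier results of these data known. Sites were named by rule: the 10 highest signals, the 5 fullest groups (ties by summed signal), the 3 fullest and 3 emptiest 1 Mb bins, the 3 longest intervals, and the 3 best-ranked sites shared with each list. Distance bands, the criterion for single distances, the finer top ranks and the comparison of windows between lists were chosen after seeing the data. Genes, promoters and motifs were not analysed here, for lack of a genome of the build.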

Additional observations from a re-analysis of the deposited data

How the results depend on the processing

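No paired analysis was possible because a factor had a single library, which also leaves no replicate to take out in turn. Of 36 alternatives, 11 stayed within the counting interval of the value reported, 22 moved outside it without changing direction, and 3 turned. Grouping within 1 kb was 2.86-fold against the density of the same 1 Mb bin, 5.06-fold at 500 bp, 1.97-fold at 2 kb, 3.47-fold in the stronger 50% of peaks and 1.54-fold without neighbours under 200 bp. The central over outer ratio was 1.13 in the stronger 50% and 1.10 for the inner against the outer 50% of length. The C3H23 overlap was 3.71-fold with summits within 100 bp, 3.77-fold against 1 Mb bins, 2.61-fold in the stronger 50% of both lists and 3.74-fold with groups as their strongest peak. In 3 of those settings (100 bp, stronger 50%, groups) OBF4 was at 0.401-fold, 0.512-fold and 0.598-fold, and THX20 at 1.71-fold, 0.852-fold (turned below uniform placement) and 1.45-fold. The strongest over weakest class ratio for C3H23 was 0.951 by −log10 p, 0.491 within 100 bp, 0.873 with the stronger 50% of C3H23, 0.668 among single CPP2 peaks and 0.730 without the strongest 1%; the last setting was chosen after seeing the data. For OBF4 it was 0.463 within 100 bp and turned to 1.74 with the stronger 50% of OBF4. The ratio of grouped shares between these classes turned to 1.52 by −log10 p, also chosen after seeing the data, against 0.952 by signal. Shorter lists and distances follow from the settings; the cause of the other shifts was not tested. Unknown read depth limits every count.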
